A study of Mus musculus with 6 samples.

Results

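This account follows 10 genes of protein folding and stress signalling in the endoplasmic reticulum through the quadriceps femoris, a thigh muscle, of Prr14-KO and Prr14-WT mice. They are Hspa5, Hsp90b1, Calr, Canx, Pdia3, Pdia4, Herpud1, Xbp1, Atf4 and Ddit3, chosen by symbol from the 22036 genes listed. All 10 had enough reads to be tested, among 6680 tested genes. Total RNA was read as full-length cDNA on a nanopore instrument in 3 knockout (KO) libraries and 3 wild-type (WT) libraries, with no treatment named in the labels. The genotypes are Prr14-KO and Prr14-WT. The labels give neither age, sex nor strain, and do not say which part of Prr14 was removed, in which cells, or whether each library is a separate animal. The p-values therefore measure the spread between these libraries.

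The reticulum is where secreted and membrane proteins fold, and in muscle its specialised form, the sarcoplasmic reticulum, also stores calcium. Chaperones and disulfide isomerases do the folding, and misfolded proteins are pulled back to the cytosol and destroyed. When unfolded protein builds up, the sensors ATF6, IRE1 and PERK start the unfolded protein response. ATF6 and XBP1, whose mRNA is spliced by IRE1, raise chaperone genes through promoter elements called ERSE. PERK raises translation of ATF4, which acts on genes of amino acid supply and, through CHOP, of cell death. A count per gene does not separate the spliced from the unspliced Xbp1 mRNA, and an mRNA level does not measure ATF4 translation or ATF6 cleavage.

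The members' promoters show how far they share those elements. The windows searched were the RefSeq promoters on GRCm38.p6, 250 bases before to 50 after the start, numbered from -1 at the last base before the start. The table held 1 window for each of the 10 members. The ERSE letters CCAAT and CCACG, 9 bases apart on either strand, were found in 4 of the 10 members, Hspa5, Hsp90b1, Calr and Canx, against 0.119% of all 32851 windows. The shorter ERSE-II, ATTGG and CCACG with 1 base between them, was found in Herpud1 and in 0.0365% of windows. The core of the C/EBP-ATF element bound by ATF4, TGATG and AA with 1 base between them, was also found in Herpud1 (3.97% of windows). The XBP1 element TGACGTGG was found in no member (0.676% of windows). The letters CCAAT alone were in 9 of the 10 members and 37.4% of windows. ERSE was already known as an element of chaperone genes, so these shares describe the members and are not a test of enrichment. No match of the ERSE, ERSE-II, XBP1 or C/EBP-ATF letters overlapped another of them, and a match in letters is not evidence of binding. The 5 members with an ERSE or ERSE-II are shown in the direction of transcription, with the matched letters in capitals. The Hspa5 stretch is short because it lies within the longer GENCODE form of the gene.

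Hspa5, chr2:34772020-34772048, plus strand, bases -70 to -42: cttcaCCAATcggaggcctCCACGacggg
Hsp90b1, chr10:86705528-86705661, minus strand, bases -217 to -84: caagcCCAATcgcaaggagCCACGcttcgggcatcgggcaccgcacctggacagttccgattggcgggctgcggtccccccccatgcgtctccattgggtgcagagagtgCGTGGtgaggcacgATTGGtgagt
Calr, chr8:84847045-84847123, minus strand, bases -192 to -114: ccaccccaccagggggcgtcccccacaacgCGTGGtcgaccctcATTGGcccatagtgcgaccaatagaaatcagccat
Canx, chr11:50325770-50325848, minus strand, bases -175 to -97: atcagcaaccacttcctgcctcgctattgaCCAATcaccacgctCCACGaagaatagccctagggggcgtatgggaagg
Herpud1, chr8:94386287-94386417, plus strand, bases -142 to -12: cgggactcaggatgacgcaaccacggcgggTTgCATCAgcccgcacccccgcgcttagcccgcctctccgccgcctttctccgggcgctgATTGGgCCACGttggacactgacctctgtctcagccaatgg

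Hsp90b1 carried 2 ERSE matches, on opposite strands, and the other three carried 1 each. In Herpud1 the C/EBP-ATF core reads on the opposite strand and lies upstream of the ERSE-II.

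The libraries held 1436099 to 1712975 counts, and 3 counts corresponded to 1.72 to 2.19 CPM. CPM here are counts relative to library size after TMM scaling, which corrects for the few very abundant muscle mRNAs, and ± values are SDs over 3 libraries. The targeted gene, Prr14, had 4, 10 and 3 counts in KO replicates 1 to 3, against 9, 11 and 12 counts in WT replicates 1 to 3 (log2 fold change -1.10, edgeR adjusted p = 0.196). The library labelled KO replicate 2 thus held a raw Prr14 count within the range of the WT libraries. On the CPM scale it stood at 6.25 CPM, beside 6.57 CPM in WT replicate 1, the lowest WT library. Every KO library then lay below every WT library, as for 12.2% of all tested genes. The members' fold changes without KO replicate 2 are given below. The fibre markers Ckm, Acta1, Mylpf, Mb, Des, Tnnt3, Tnni2 and Pvalb were all detected. Their summed level was 117956 to 130946 CPM in KO and 150442 to 192906 CPM in WT. Of the 8, 3 were lower by the test, beside 3.28% of all tested genes. For 5 of the 8 every KO library lay below every WT library, beside 12.2%. Des alone had a positive log2 fold change (0.45).

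No member passed the test: 0 of 10 were higher and 0 of 10 were lower in KO at an edgeR adjusted p under 0.05, where 2.98% and 3.28% of all tested genes were. DESeq2 and limma voom likewise called 0 members, where they called 2.11% and 2.26% of their tested genes as higher. At an unadjusted p under 0.05, 3 members were higher (10.7% of all tested genes) and 0 were lower (9.28%). For the same 3, Hspa5, Hsp90b1 and Canx, every KO library lay above every WT library, as for 13.5% of tested genes. For 0 members did every KO library lie below every WT library, as for 12.2%. On the log2 scale the members' fold changes had a median of 0.24, and 8 of 10 were positive, beside a median of 0.02 and 3471 positive of 6680 over all tested genes. The members were all of moderate depth, between 19 and 355 counts in a library.

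**Figure D1:**
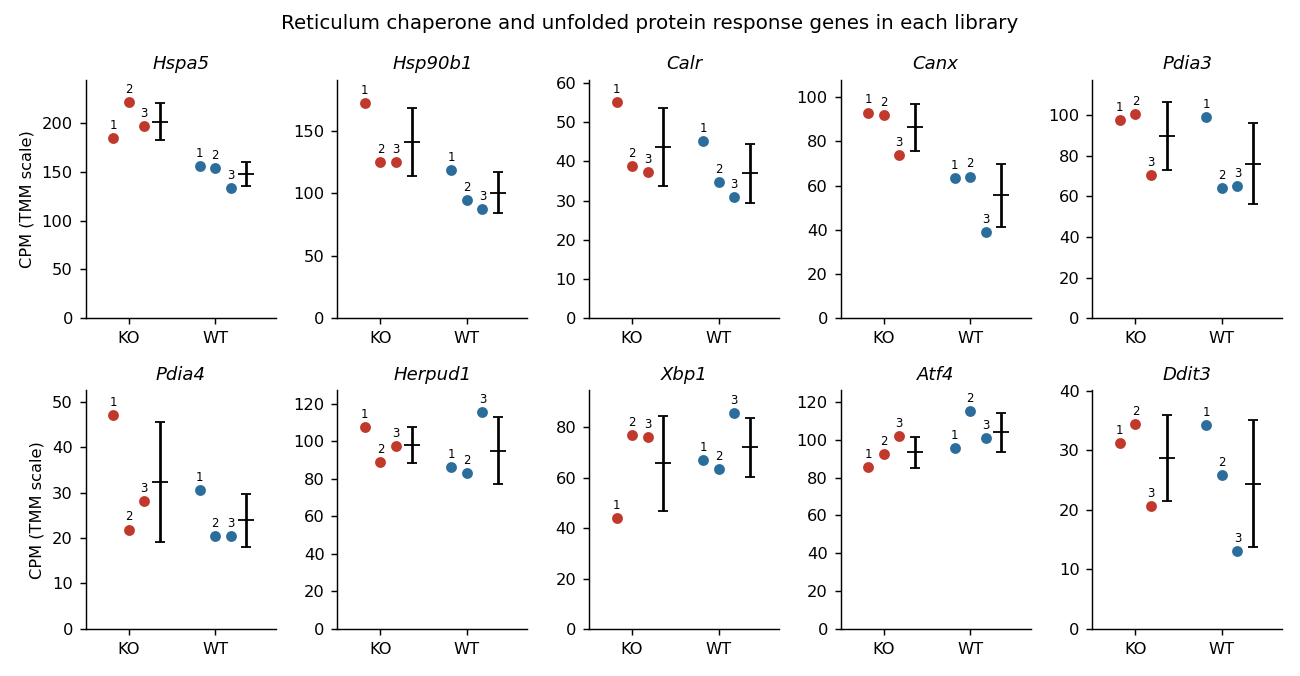
Each panel shows the CPM (TMM scale, axis from 0) of 1 gene in the 3 KO libraries (left, red) and the 3 WT libraries (right, blue). Small digits are replicate numbers, and black marks are the mean with SD bars; only in the panels of Hspa5, Hsp90b1 and Canx do all KO points lie above all WT points.

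The general chaperones had higher means in KO muscle. Hspa5 (ENSMUSG00000026864, chr2:34771970-34777547, plus strand, GRCm38 positions here and for the genes that follow) encodes BiP, the HSP70 chaperone of the reticulum, which also holds the stress sensors inactive. It had 185, 222 and 197 CPM in KO replicates 1 to 3, against 156, 154 and 133 CPM in WT replicates 1 to 3. The genotypes did not overlap, and the lowest KO library stood above the highest WT library by less than the KO libraries differed among themselves. The means were 201 ± 18.8 CPM in KO and 148 ± 12.5 CPM in WT (SD, n = 3 each), a 1.36-fold ratio in the fit (log2 fold change 0.44, 95% interval 0.16 to 0.73, edgeR adjusted p = 0.0625). The intervals are per gene and not adjusted for the number of genes, so an interval clear of 0 is not a call.

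Hsp90b1 (ENSMUSG00000020048, chr10:86690209-86705509, minus strand) encodes GRP94, the HSP90 chaperone of the reticulum, needed for integrins and toll-like receptors to fold. It had 173, 125 and 125 CPM in KO replicates 1 to 3, against 119, 94.7 and 87.6 CPM in WT replicates 1 to 3. In each genotype replicate 1 stood above the other two, and WT replicate 1 came close to the lower KO libraries. The means were 141 ± 27.3 CPM in KO and 100.4 ± 16.4 CPM in WT (SD, n = 3 each). The log2 fold change was 0.49 (95% interval 0.13 to 0.85, edgeR adjusted p = 0.110).

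The lectin chaperones calnexin and calreticulin hold newly made glycoproteins by their sugar chains. Canx (ENSMUSG00000020368, chr11:50293961-50325673, minus strand), which encodes the membrane-bound calnexin, had 93.0, 91.8 and 73.9 CPM in KO replicates 1 to 3, against 63.5, 64.1 and 39.0 CPM in WT replicates 1 to 3. WT replicate 3 was the lowest library, and the genotypes did not overlap. The means were 86.2 ± 10.7 CPM in KO and 55.5 ± 14.3 CPM in WT (SD, n = 3 each). The log2 fold change of 0.63 for Canx was the highest among the members (95% interval 0.22 to 1.05, edgeR adjusted p = 0.0696), a ratio of 1.55. Calr (ENSMUSG00000003814, chr8:84841850-84846934, minus strand), which encodes the soluble calreticulin, a calcium store protein as well, had 55.1, 38.7 and 37.2 CPM in KO, against 45.2, 34.8 and 30.8 CPM in WT. Here WT replicate 1 exceeded KO replicates 2 and 3, and the interval of the log2 fold change ran from -0.22 to 0.70 (value 0.24, edgeR adjusted p = 0.595).

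The disulfide isomerases form and reshuffle disulfide bonds. Pdia3 (ENSMUSG00000027248, chr2:121413775-121438687, plus strand) encodes ERp57, which works with calnexin and calreticulin, and had 97.9, 101 and 70.5 CPM in KO replicates 1 to 3, against 99.2, 64.1 and 65.0 CPM in WT replicates 1 to 3. KO replicate 3 and WT replicate 1 broke the order of the genotypes (log2 fold change 0.24, 95% interval -0.19 to 0.66, edgeR adjusted p = 0.570). Pdia4 (ENSMUSG00000025823, chr6:47796141-47813430, minus strand) encodes ERp72 and had 47.1, 21.9 and 28.1 CPM in KO replicates 1 to 3, against 30.6, 20.4 and 20.5 CPM in WT replicates 1 to 3. KO replicate 1 held 2.16 times the level of KO replicate 2, and the interval was wide (log2 fold change 0.44, 95% interval -0.18 to 1.07, edgeR adjusted p = 0.446). Without KO replicate 1 the log2 fold change of Pdia4 was 0.08, and that of Calr was 0.04.

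Herpud1 and the transcription factors showed no shift of the KO libraries beyond the spread. Herpud1 (ENSMUSG00000031770, chr8:94386438-94395377, plus strand) encodes a membrane protein of the degradation complex and is itself a target of the stress response. It had 108, 88.7 and 97.4 CPM in KO replicates 1 to 3, against 86.1, 83.1 and 116 CPM in WT replicates 1 to 3, and the highest and the lowest library were both WT. Its log2 fold change was 0.04 (95% interval -0.31 to 0.39, edgeR adjusted p = 0.922).

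Xbp1 (ENSMUSG00000020484, chr11:5520659-5525893, plus strand) encodes the factor activated by IRE1. It had 44.1, 76.8 and 76.2 CPM in KO replicates 1 to 3, against 67.1, 63.4 and 85.6 CPM in WT replicates 1 to 3. KO replicate 1, the library with the most Hsp90b1, Calr, Canx, Pdia4 and Herpud1 among KO libraries, had the least Xbp1 of the 6. The log2 fold change was -0.13 (95% interval -0.59 to 0.32, edgeR adjusted p = 0.792) and turned to 0.09 without that library and to 0.11 when libraries were scaled by their totals.

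Atf4 (ENSMUSG00000042406, chr15:80255184-80257541, plus strand) encodes the factor of the integrated stress response, and had 85.7, 92.4 and 102 CPM in KO replicates 1 to 3, against 95.6, 115 and 101 CPM in WT replicates 1 to 3. The ranges overlapped (log2 fold change -0.15, 95% interval -0.47 to 0.16, edgeR adjusted p = 0.628; 0.08 with library totals). Ddit3 (ENSMUSG00000025408, chr10:127290774-127296288, plus strand) encodes CHOP, the factor linked to cell death under stress. It had 31.2, 34.4 and 20.6 CPM in KO replicates 1 to 3, against 34.3, 25.9 and 13.0 CPM in WT replicates 1 to 3. The highest WT library held 2.64 times the level of the lowest, and the interval reached from -0.45 to 0.92 (log2 fold change 0.24, edgeR adjusted p = 0.742; -0.08 without WT replicate 3).

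Ddit3 has 2 identifiers in the deposited table. All of its counts stood under ENSMUSG00000025408, and ENSMUSG00000116429, which overlaps it by 2925 bases, was listed at 0 in all 6 libraries. Ddit3 also overlaps Mars by 68 bases on the opposite strand, and Pdia3 overlaps Catsper2, which had 2 counts in all. Antisense or pseudogene transcripts annotated across Hsp90b1 and Herpud1 were not analysed here, and reads of near-identical copies could have been split. Whether counting used strand was not stated in the labels or headers.

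**Figure D2:**
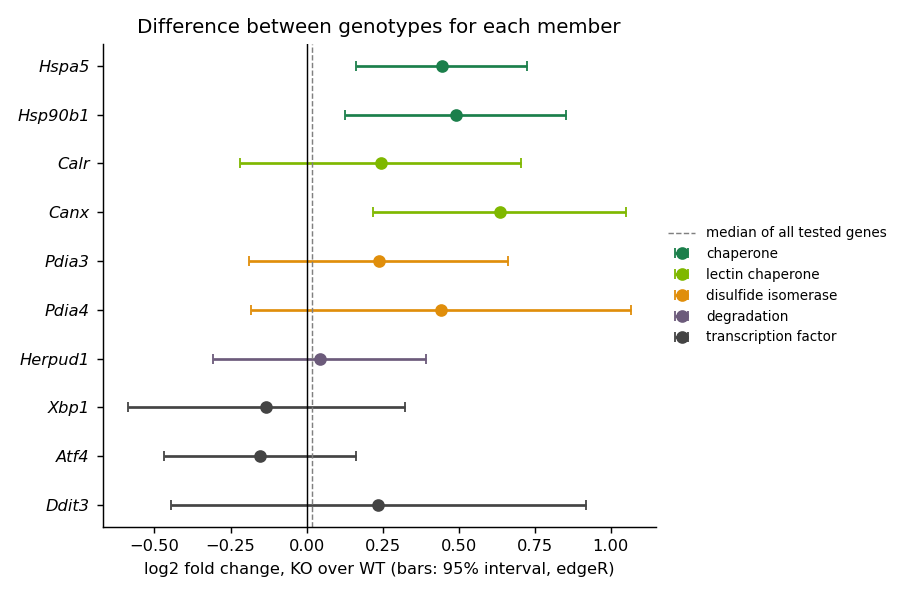
Points are log2 fold changes of KO over WT and bars their 95% intervals from the edgeR fit, coloured by role; the dashed line is the median of all tested genes (0.02). The intervals of Hspa5, Hsp90b1 and Canx lie above 0 and the other seven include it, while no member's adjusted p is under 0.05.

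Scaling and single libraries moved the count of members called. With library totals in place of TMM, Hspa5, Hsp90b1 and Canx passed as higher (edgeR adjusted p = 0.00808, 0.0244 and 0.0215), but under that scaling the median of all tested genes was 0.25 and 9.78% of them passed as higher. The members' median under that scaling was 0.47. With no filter on low counts, Hsp90b1 and Canx passed (0.0466 and 0.0136), beside 2.41% of genes. Without KO replicate 1 Hspa5 passed (log2 fold change 0.50, edgeR adjusted p = 0.0362), beside 2.17% of genes. Without the library labelled KO replicate 2, 0 members passed, beside 2.56% of genes, and the log2 fold change was 0.37 for Hspa5, 0.57 for Hsp90b1 and 0.59 for Canx (edgeR adjusted p = 0.171, 0.0962 and 0.152). It was then 0.32 for Calr, 0.15 for Pdia3, 0.65 for Pdia4 and 0.11 for Herpud1. Among the transcription factors it was -0.26 for Xbp1, -0.15 for Atf4 and 0.09 for Ddit3, so all 10 members kept their sign.

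Within a genotype the members did not vary as a block. Among WT libraries replicate 1 was the highest for 6 of the 10 members, and among KO libraries replicate 1 was the highest for 5. Hsp90b1, Calr and Pdia4 had their highest value of each genotype in replicate 1, whose number is only a name and pairs no animals. So did 6 of the 8 fibroblast markers, the 3 collagen genes among them, while Pdgfra and Dpt did not. This order was counted for the fibroblast list only, with no share over all tested genes to set it against. It also occurred in markers of other cell types, such as Csf1r and Cidec, and was absent in others, such as C1qb and Adipoq. Col1a1 had 67.3, 31.9 and 33.2 CPM in KO replicates 1 to 3, against 86.8, 29.3 and 27.4 CPM in WT replicates 1 to 3. Hspa5 did not follow this order in KO, where replicate 1 was its lowest library, and Xbp1 went the opposite way there.

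**Figure D3:**
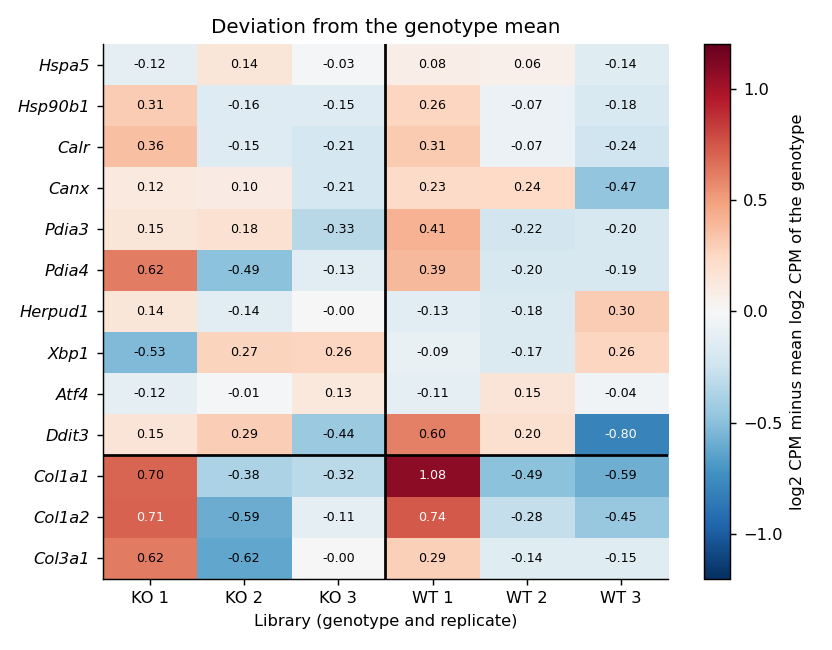
Cells give log2 CPM minus the mean log2 CPM of the library's own genotype, with KO libraries left of the line and WT libraries right of it, members above and 3 collagen genes below. KO replicate 1 and WT replicate 1 are red for Hsp90b1, Calr, Pdia4 and the collagens (0.31, 0.36 and 0.62 in KO replicate 1 for those members), while Xbp1 is at -0.53 in KO replicate 1.

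Secretory cells other than fibres carry much of this folding machinery, and in bulk tissue fewer cells of a type cannot be told apart from less RNA per cell. All 8 fibroblast markers were tested, with 0 called, and summed to 3739 to 4686 CPM in KO and 3837 to 5813 CPM in WT. The 9 macrophage markers summed to 202 to 219 CPM in KO and 164 to 537 CPM in WT, highest in WT replicate 1, with 7 tested and 0 called. Markers of B and plasma cells, which secrete antibody, were low. The 5 found summed to at most 0.62 CPM in KO and 2.73 to 7.53 CPM in WT, and Ms4a1 was at 0 in all libraries. Endothelial markers summed to 149 to 205 CPM in KO and 138 to 177 CPM in WT, and smooth muscle and pericyte markers to 707 to 861 CPM in KO and 717 to 769 CPM in WT. Adipocyte markers summed to 339 to 552 CPM in KO and 114 to 709 CPM in WT, and Schwann cell markers lay at 130 to 197 CPM in KO and 147 to 251 CPM in WT. None of the tested markers among these was called. Of the B and plasma cell markers 0 were tested, so none of them could be called. The part of these cell types in the members' values was not tested.

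The rest of the pathway was read from 119 further genes in 8 lists, of which 82 were tested. Of these 3 rose, 1 fell and 78 did not pass, beside 2.98% and 3.28% of all tested genes called higher and lower, so the share of higher calls was near that of all genes. The median log2 fold change was 0.18. KO libraries lay wholly above WT for 19 of the 82 and wholly below for 3, beside 13.5% and 12.2% of all tested genes. The genes that passed were Vcp, Ube2g2 and Atf5 (higher) and Chac1 (lower).

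**Figure D4:**
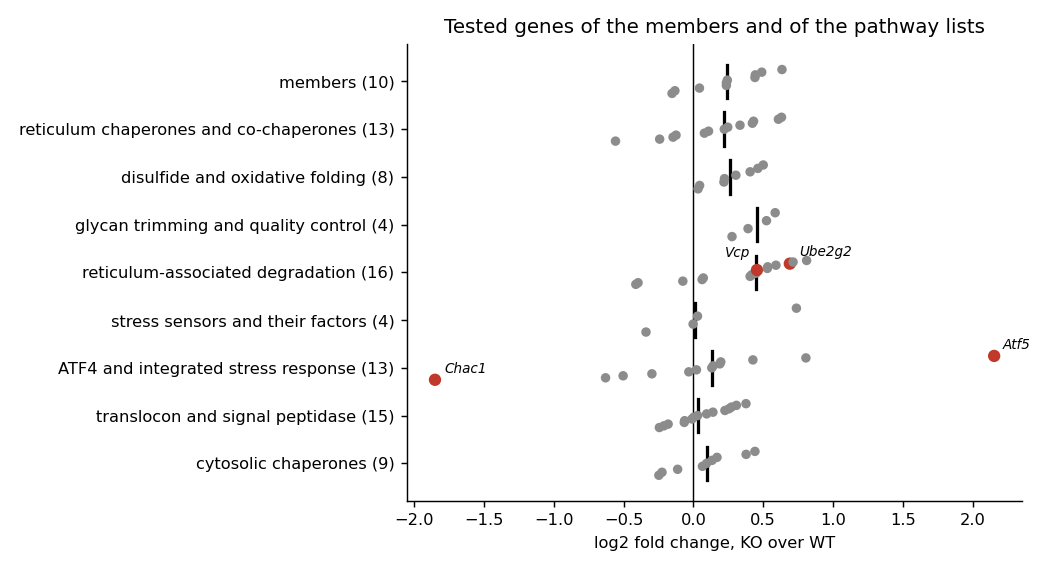
Each point is 1 tested gene, placed by its log2 fold change of KO over WT, in rows for the members and for 8 pathway lists with the number tested in brackets. Black bars are list medians, and red points, labelled, have an edgeR adjusted p under 0.05.

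Genes of reticulum-associated degradation, which extracts misfolded proteins and tags them for the proteasome, held 2 of the calls. Among 16 tested members of this list 2 passed as higher and 0 as lower, beside 2.98% and 3.28% of all tested genes, with a median of 0.45. Ube2g2, a ubiquitin-conjugating enzyme of this route, had 215, 197 and 180 CPM in KO replicates 1 to 3, against 110, 117 and 139 CPM in WT replicates 1 to 3. The genotypes did not overlap (log2 fold change 0.69 with an SE of 0.14, edgeR adjusted p = 0.00706). The call was lost without WT replicate 1 (0.0730) or 2 (0.0776).

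Vcp encodes the ATPase p97, which pulls proteins out of the membrane and has many other tasks in the cell. It had 477, 347 and 398 CPM in KO replicates 1 to 3, against 306, 288 and 297 CPM in WT replicates 1 to 3. Every KO library stood above every WT library (log2 fold change 0.46, SE 0.12, edgeR adjusted p = 0.0428). Its call was lost in 9 of 14 alternatives (adjusted p 0.0521 to 0.225), DESeq2 (0.151) and 5 of the 6 left-out libraries among them. The Vcp promoter held the XBP1 element, as did 0.676% of all windows, while Ube2g2 had no window among those searched.

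Vcp, chr4:43000584-43000651, minus strand, bases -144 to -77 (GRCm38.p6): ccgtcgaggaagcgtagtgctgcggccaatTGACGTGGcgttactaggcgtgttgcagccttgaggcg

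Further genes of the list did not pass, with mostly positive values. Ubxn4, an adaptor of p97, had a log2 fold change of 0.71 (edgeR adjusted p = 0.0543). Os9, a lectin that recognises misfolded glycoproteins, stood at 0.81 (0.0609) and Selenos, which recruits p97 to the membrane, at 0.59 (0.0824). Sel1l, the scaffold of the complex, stood at 0.42 and Derl1, a channel component, at 0.06. Of the 16 tested, 13 were positive and 3 negative. The negative ones were Erlec1 at -0.41, Faf2 at -0.40 and Ufd1 at -0.08, all uncalled. In 7 of the 16 every KO library lay above every WT library and in 0 below, beside 13.5% and 12.2% of all tested genes.

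**Figure D5:**
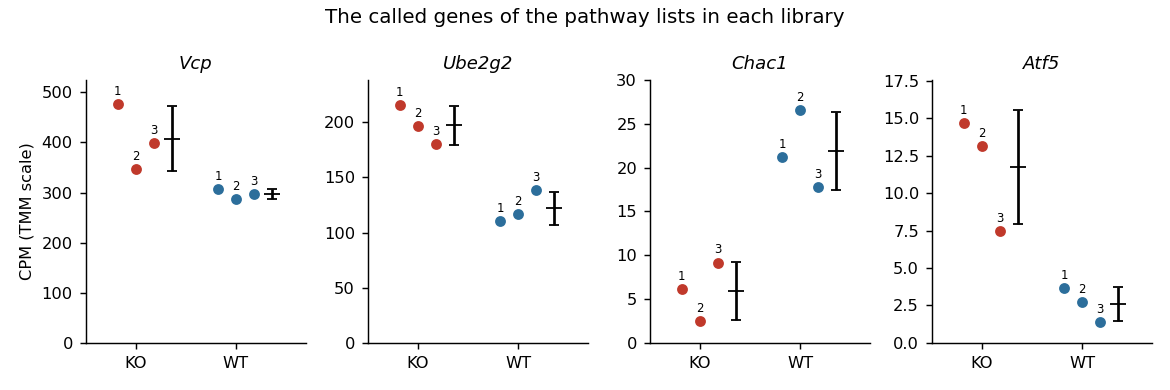
CPM (TMM scale, axis from 0) of the 4 genes of the pathway lists with an edgeR adjusted p under 0.05, in KO libraries (left, red) and WT libraries (right, blue), with mean and SD in black. Vcp, Ube2g2 and Atf5 lie higher in KO and Chac1 lower, with no overlap in any panel.

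The integrated stress response list held calls in both directions while Atf4 itself showed none. In this list 13 genes were tested, 1 of which passed as higher and 1 as lower, beside the same shares of all tested genes (median 0.13). Chac1 encodes an enzyme that breaks down glutathione and is a known target of ATF4 and CHOP. It had 6.12, 2.50 and 9.17 CPM in KO replicates 1 to 3 (10, 4 and 16 counts), against 21.2, 26.6 and 17.8 CPM in WT replicates 1 to 3 (29, 39 and 26 counts). The fold change was -1.85 on the log2 scale (SE 0.36, edgeR adjusted p = 0.00581). The call held in all 14 alternatives (adjusted p up to 0.0339). Its promoter held the C/EBP-ATF core on the opposite strand (3.97% of all windows), shown here for comparison with Herpud1.

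Chac1, chr2:119351019-119351086, plus strand, bases -223 to -156 (GRCm38.p6): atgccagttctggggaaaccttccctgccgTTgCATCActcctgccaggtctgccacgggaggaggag

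Atf5 encodes a relative of ATF4 that responds to mitochondrial and cytosolic protein stress. It had 14.7, 13.1 and 7.45 CPM in KO replicates 1 to 3 (24, 21 and 13 counts), against 3.65, 2.73 and 1.37 CPM in WT replicates 1 to 3 (5, 4 and 2 counts). WT replicate 3 was below the level of 3 counts, so the size of the rise is loosely set (log2 fold change 2.15, SE 0.45, edgeR adjusted p = 0.00911; 1.85 to 2.44 in the alternatives, in all 14 of which it was called). Its promoter windows held no match of the ERSE, ERSE-II, XBP1 or C/EBP-ATF letters. The gene overlaps Nup62 by 571 bases on the opposite strand. Nup62 had 26, 25 and 22 counts in KO replicates 1 to 3 and 12, 22 and 14 counts in WT replicates 1 to 3, and reads could have been split between them.

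Other targets of ATF4 were mostly too low to test. Trib3, Asns, Psat1, Slc7a11, Gdf15 and Fgf21 were among the 17 of 30 listed genes that did not pass the filter, and Slc7a11 and Fgf21 were at 0 in all libraries. The 13 tested genes of the list are not all targets of ATF4. Among them every KO library lay above every WT library for 2 and below for 3 (13.5% and 12.2% of all tested genes). The called Atf5 and Chac1 are included. The uncalled 3 were Cebpg, a partner of ATF4, at a log2 fold change of 0.81 (edgeR adjusted p = 0.203), the lipoprotein receptor gene Vldlr at -0.63 (0.128), and Eif2ak1, which encodes a kinase of the response, at -0.50 (0.227). Of the others, Ddit4 had a log2 fold change of -0.03, Ppp1r15a, which restores translation after stress, 0.19, and Eif4ebp1 0.02.

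The remaining folding genes had 0 calls. Of 13 co-chaperones tested, 0 rose and 0 fell, with a median of 0.22; Dnajb9 and Dnajc3, known targets of XBP1 and ATF6, stood at -0.15 and 0.11, and Manf at 0.63 (edgeR adjusted p = 0.301). All 8 tested genes of oxidative folding, of 11 listed, had positive values (median 0.26, 0 called), beside 3471 of 6680 over all tested genes. Of the untested ones, Pdia5 and Ero1lb had lower means in KO and Ero1l a slightly higher one, all at few counts. P4hb, the main disulfide isomerase and a subunit of collagen prolyl hydroxylase, had 260.0, 198 and 190.2 CPM in KO replicates 1 to 3, against 169, 131 and 159 CPM in WT replicates 1 to 3 (log2 fold change 0.50, edgeR adjusted p = 0.0674). All 4 tested genes of glycan trimming, of 6 listed, were positive too (median 0.46, 0 called). Uggt1, the folding sensor for glycoproteins, stood at 0.52 (edgeR adjusted p = 0.306).

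Of the stress sensors, 4 of 10 listed genes were tested, with 0 calls. Atf6 had 14.1, 22.5 and 16.0 CPM in KO replicates 1 to 3, against 8.76, 12.3 and 10.3 CPM in WT replicates 1 to 3. Its groups did not overlap (log2 fold change 0.74, edgeR adjusted p = 0.165). Ern1 and Eif2ak3, which encode IRE1 and PERK, had at most 4 and 1 counts in a library. They did not pass the filter and were not tested in the main fit. Ern1 had 4, 2 and 2 counts in KO replicates 1 to 3, against 1, 1 and 1 in WT replicates 1 to 3, too few to size a difference.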

How the data were processed

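Quadriceps RNA of 3 KO and 3 WT libraries was measured. The build GRCm38, minimap2 (with no version) and DESeq2 1.6.3 are listed per the submitters' processing notes, with no role or order. Counter, annotation release, strand: not given in the sources used here. Per gene, the deposited values are named counts in the file headers and are whole numbers. The deposited CPM are so named per the file headers. The total behind them was estimated for each library from the median ratio of counts to CPM among well-counted genes. The listed genes lack 3.09 to 4.10% of that total. Only the counts were tested.

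Counts were filtered with edgeR's filterByExpr (minimum count 10, minimum total 15), scaled by TMM and compared in R 4.3.3 with edgeR 4.0.16 (quasi-likelihood, robust), with Benjamini-Hochberg adjustment over 6680 genes at 0.05. The steps were tested on simulated data. Alternatives were DESeq2 1.42.0, limma 3.58.1 (voom), other scalings and filters, robust=FALSE and each library left out. Symbols were matched by identifier (22022 of 22036), positions are GENCODE M21, promoters RefSeq. Pairs of libraries of a genotype differed by more than sampling noise (chi-square per degree of freedom 2.19 to 5.35). Reads carry no molecular identifiers, so the level of 3 counts covers counting error only.

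The members and lists were chosen with earlier results of these data known. Named were the members, Prr14 and called genes of each list (up to 5); other list genes were picked after their values were seen.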

Additional observations from a re-analysis of the deposited data

How the results depend on the processing

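The 14 alternatives kept 0 members called as higher in KO except library totals (3), no filter (2) and the left-out libraries (0 to 1). Members called as lower stayed at 0. The count of all genes called, 418, was 801 with library totals and 706 with no filter, and 237 to 363 with a library left out, lowest without WT replicates 2 (237) and 1 (273). Pathway genes called as higher, 3, numbered 15 with library totals, 6 with no filter and 1 to 4 with a library left out (1 without WT replicate 1 or 2). No member was called in the main fit, so any turned sign was that of an uncalled one. With library totals the sign turned for Xbp1 (0.11) and Atf4 (0.080). With a library left out it turned for Xbp1 (-0.26 to 0.088), Ddit3 (-0.075 to 0.53) and Herpud1 (-0.076 to 0.20). The cause was not tested. Depth limits the low genes: those that did not pass the main filter on counts were left out of the main fit of 6680 genes. With no filter 14292 genes were tested. The filter of at least 5 CPM in 3 libraries kept 7368, and the fits with a library left out kept 6955 to 7068.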

Other observations

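The entry of proteins into the reticulum and the cytosolic chaperones gave 0 calls. All 15 genes of the translocon and signal peptidase were tested, with a median log2 fold change of 0.03 and 9 positive values. Sec61g, a small translocon subunit, had 699, 601 and 626 CPM in KO replicates 1 to 3 and 559.6, 591 and 598 CPM in WT replicates 1 to 3, with a log2 fold change of 0.14 (edgeR adjusted p = 0.489). Of 12 cytosolic and mitochondrial chaperones 9 were tested (median 0.09). Hspa8, the constitutive HSP70, had 2604, 2841 and 2668 CPM in KO replicates 1 to 3 and 2554, 2387 and 2813 CPM in WT replicates 1 to 3. The inducible Hspa1a and Hspa1b were too low to be tested, at no more than 11 and 2 counts in a library.

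Over the 6 libraries, the genes whose log2 CPM followed Hspa5 most closely were Actn2 (Pearson r = 0.987), Cdc37 (0.985), Smim8 (0.981), Acadl (0.975) and Gabarap (0.970), among 1882 genes with a mean of at least 50 CPM. The value is a description that includes the difference between genotypes, and the libraries share their depth. Of the 5, Cdc37, a co-chaperone of HSP90 for kinases, and Acadl, an enzyme of fatty acid oxidation, passed as higher in KO (edgeR adjusted p = 0.0367 and 0.0470). By the same test 2.98% of all tested genes were higher. Hspa5 itself lay higher in every KO library, so picking genes that followed it favoured genes higher in KO. The calls are therefore not a separate result.

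Atf3, an immediate stress gene, did not pass the filter, and 1 library held most of its counts. It had 6, 21 and 2 counts in KO replicates 1 to 3 and 99, 6 and 2 counts in WT replicates 1 to 3. WT replicate 1 was also the WT library with the most Ddit3 and the most macrophage, fibroblast, adipocyte and Schwann cell marker RNA. It was not the highest WT library for fibre, endothelial, smooth muscle and pericyte, or B and plasma cell markers. Among WT libraries it was the highest for 6 members, Ddit3 included, and WT replicates 2 and 3 for 2 each. Whether Atf3 is tied to any of these was not tested.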
